A study of Macaca mulatta with 38 samples.

Results

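Neural stem cells from the caudal cortex of rhesus macaque (Macaca mulatta) fetuses at embryonic day 77 (E77 Occipital) were compared with those at embryonic day 42 (E42 Posterior), after 11, 14 and 17 days in culture. These 6 libraries, 3 against 3 and matched by day in vitro, were taken by their labels from the 38 bulk RNA-seq libraries of the series. Cells of wild-type fetuses were plated on fibronectin at low oxygen and grown with FGF2 for 5 days, and then kept in a differentiation medium with BDNF and NT-3 and without FGF2, at both ages alike. RNA was pooled from 2 wells per condition, and each series gave 1 library per day. The E77 Occipital library of day 20 was not used, since E42 has no library of that day. Nothing in the labels ties the 3 libraries of a group to different animals, as they are 3 days of a culture series. P-values therefore measure the spread between days of a culture that is left after removing the day effect shared by all series. This spread was estimated over all 36 libraries of days 1 to 17 together. Age cannot be told apart from the individual fetus, its dissection or its run of culture.

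In primate cortex, radial glia first give rise to glutamatergic (excitatory) neurons through intermediate progenitors, and later in gestation turn to astrocytes and oligodendrocyte precursors. Inhibitory GABAergic neurons of the cortex come largely from ventral progenitors, and progenitors of human and macaque cortex have also been described to make some of them late in development. FGF2 keeps such cells dividing in culture, and its withdrawal lets them differentiate.

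Counted reads per library were 23239530, 34922663 and 27504488 in E77 Occipital on days 11, 14 and 17, and 29785877, 20149635 and 29563072 in E42 Posterior. Levels are CPM, counts relative to the total of the tested genes in each library with TMM scaling between libraries, and means carry the SD of the 3 libraries. Of the 34619 genes counted, 20770 had enough counts to be tested. Log2 fold changes are E77 Occipital minus E42 Posterior, from an edgeR quasi-likelihood fit of 36 libraries with day as a block. The standard error (SE) given with each is its absolute value divided by the square root of the test's F statistic. This SE is approximate and may fall below counting error for genes with few counts in a group. A gene passed at a Benjamini-Hochberg adjusted p under 0.05. Log2 CPM correlated at 0.973 to 0.988 among E77 Occipital libraries, 0.987 to 0.990 among E42 Posterior libraries, and 0.944 to 0.958 between the groups. Within E77 Occipital, day 11 lay farther from days 14 and 17 (SD of the log2 differences 0.782 and 0.726) than these from each other (0.512).

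The cortical label was checked against regional genes. EMX2, a transcription factor of the dorsal telencephalon, stood at 28.3, 29.7 and 22.1 CPM in E77 Occipital on days 11, 14 and 17 and at 55.6, 43.03 and 36.2 CPM in E42 Posterior, where every library was higher (log2 fold change -0.73 ± 0.13, adjusted p = 0.00013). NR2F1, a nuclear receptor graded towards the back of the cortex, stood at 168, 192 and 161 CPM in E77 Occipital and 178, 187 and 197 CPM in E42 Posterior, and these ranges overlap. Of 9 tested genes of ventral forebrain and diencephalon 4 were higher in E77 Occipital and 3 lower, and they summed to 415.8 to 754 CPM in E77 Occipital and 156 to 175 CPM in E42 Posterior. Of these sums OLIG2, which oligodendrocyte precursors also express, made up 233, 422 and 511 CPM in E77 Occipital and 22.3, 26.04 and 30.2 CPM in E42 Posterior on days 11, 14 and 17. The rest of the sum was also higher in every E77 Occipital library than in any E42 Posterior one, by a smaller margin. The 3 microglial genes tested, of 11 listed, summed to 2.48 to 4.49 CPM in E77 Occipital and 5.07 to 5.62 CPM in E42 Posterior. Of 11 listed genes of midbrain, hindbrain and spinal cord 5 were tested. These summed to at most 0.246 CPM in any of the 6 libraries. ATOH1, a hindbrain factor outside this list, had 0 counts in E77 Occipital and averaged 1.39 CPM in E42 Posterior. No erythroid gene in the file reached the test.

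In the terminal phase 7205 genes (34.7% of those tested) differed between E77 Occipital and E42 Posterior: 3252 were higher in E77 (15.7%) and 3953 lower (19.0%). The direction was the same on all 3 days for 6934 of the 7205, and the groups did not overlap for 6233 of them. Over all tested genes every E77 library lay above every E42 library in 17.7% and below in 21.0%. Differences of over 8-fold were more often lower than higher in E77, with 344 genes against 229. The median log2 fold change over all tested genes was -0.04. Members of gene lists are given below against these shares of 15.7% and 19.0%, since a list with counts near them does not stand apart from the other genes.

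Genes of oligodendrocytes, the myelin-forming cells, were higher in E77 Occipital without exception: all 15 listed genes passed, with a median log2 fold change of 4.27. GPR17, a receptor of precursors that begin to differentiate, stood at 69.1, 158 and 221 CPM in E77 Occipital and at 2.22, 3.15 and 4.51 CPM in E42 Posterior (log2 fold change 5.43 ± 0.54, adjusted p = 1.4e-07). SOX10, the transcription factor of the whole lineage, stood at 49.8, 166 and 196 CPM in E77 Occipital and 3.54, 2.76 and 5.55 CPM in E42 Posterior (log2 fold change 4.97 ± 0.45, adjusted p = 2.7e-08). For both genes the lowest E77 library, day 11, lay far above the highest E42 library, day 17.

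Later steps of the lineage showed the same order with a steeper course over the days. BCAS1, which marks newly forming myelinating cells, stood at 12.6, 102 and 184 CPM in E77 Occipital and 0.943, 2.31 and 4.65 CPM in E42 Posterior (log2 fold change 5.00 ± 0.49). MBP, a structural protein of compact myelin, stood at 8.29, 84.2 and 141 CPM in E77 Occipital and 1.21, 1.82 and 3.38 CPM in E42 Posterior (log2 fold change 4.81 ± 0.53, adjusted p = 4.5e-07). MOG, a protein of the outer myelin surface, reached 0.379, 3.32 and 5.46 CPM in E77 Occipital and 0.0337, 0.148 and 0.1003 CPM in E42 Posterior. In E77 Occipital these 3 genes were low on day 11 and highest on day 17, and no E42 library reached the lowest E77 one. ENPP6, an enzyme of newly formed oligodendrocytes, averaged 21.7 ± 15.2 CPM in E77 Occipital and 0.666 ± 0.147 CPM in E42 Posterior (log2 fold change 4.82 ± 0.41).

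PDGFRA and OLIG2, genes of precursors, were picked after their values were seen. PDGFRA, the growth factor receptor of oligodendrocyte precursors, stood at 962, 1264 and 1575 CPM in E77 Occipital and 83.7, 80.6 and 105 CPM in E42 Posterior (log2 fold change 3.80 ± 0.32, adjusted p = 9.6e-09). OLIG2, a transcription factor that starts the lineage, averaged 389 ± 142 CPM in E77 Occipital and 26.1 ± 3.95 CPM in E42 Posterior. Per length, in the RPKM that the authors deposited, the mean levels in E77 Occipital were 182 for PDGFRA, 148 for OLIG2, 47.5 for GPR17, 26.98 for MBP and 1.12 for MOG. SOX8 stood at 124, SOX10 at 46.2, BCAS1 at 26.2 and ENPP6 at 5.503 RPKM there. One of the smaller differences of the list was that of SOX8, a relative of SOX10, at 391 ± 94.2 CPM in E77 Occipital and 111 ± 8.09 CPM in E42 Posterior (log2 fold change 1.79 ± 0.18). As these are bulk libraries, fewer cells of a type and less RNA per cell cannot be told apart, here and in the groups that follow.

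Astrocyte genes were the second group that was higher, with 14 of 16 higher, 1 lower and a median log2 fold change of 2.34. APOE, the main lipid carrier made by astrocytes, stood at 1338, 1848 and 1266 CPM in E77 Occipital and 63.9, 73.1 and 102 CPM in E42 Posterior (log2 fold change 4.25 ± 0.34, adjusted p = 4.2e-09). AGT, the angiotensin precursor, stood at 20.9, 62.1 and 77.2 CPM in E77 Occipital and 1.95, 1.82 and 2.81 CPM in E42 Posterior (log2 fold change 4.49 ± 0.50). The groups were apart by over an order of magnitude for APOE on each day, and AGT was lowest in E77 Occipital on day 11. GJB6, a gap junction protein of mature astrocytes, averaged 11.9 ± 2.86 CPM in E77 Occipital and 1.08 ± 0.791 CPM in E42 Posterior (log2 fold change 3.56 ± 0.36), and CHI3L1, a secreted protein of reactive astrocytes, had 85 counts in E77 Occipital and 3 in E42 Posterior, which is 26.98-fold higher (95% exact counting interval 8.93 to 133).

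GFAP and AQP4, chosen after their values were seen as the textbook astrocyte genes, were already well expressed at E42. GFAP, the astrocyte intermediate filament, stood at 2773, 4785 and 4506 CPM in E77 Occipital and 1076, 1164 and 1439 CPM in E42 Posterior (log2 fold change 1.70 ± 0.19, adjusted p = 2e-07). AQP4, the water channel, stood at 453, 606 and 816 CPM in E77 Occipital and 81.3, 113 and 182 CPM in E42 Posterior (log2 fold change 2.35 ± 0.25). The 2 members outside the trend were SLC1A2, a glutamate transporter, which was lower (48.9 ± 4.33 CPM in E77 Occipital, 68.7 ± 8.33 CPM in E42 Posterior, log2 fold change -0.49 ± 0.18, adjusted p = 0.036), and ID3, a BMP target, which did not pass (log2 fold change 0.74 ± 0.45). Both were named after their values were seen. SLC1A2 did not pass without the low-count filter, without the day block, with limma on log2(RPKM + 0.1), with only the 18 libraries of both caudal series, or without any one of the 6 libraries other than that of E42 Posterior on day 11 (log2 fold changes -0.37 to -0.55).

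**Figure D1:**
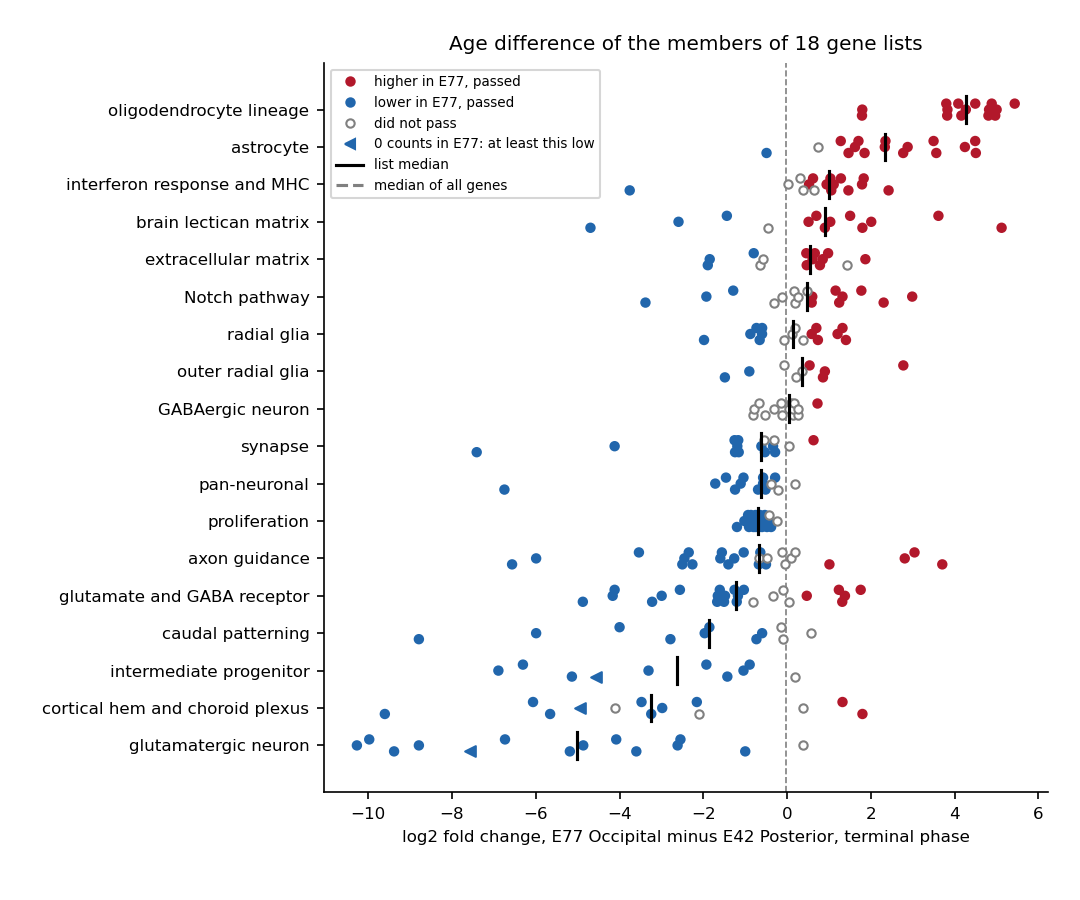
Log2 fold change of each tested member (point) of 18 gene lists, E77 Occipital minus E42 Posterior in the terminal phase, with list medians as black bars and the median of all genes dashed. Filled points passed (red higher and blue lower in E77), open points did not, and triangles stand at the bound of genes with 0 counts in E77; all 15 oligodendrocyte genes lie to the right and 13 of 14 glutamatergic genes to the left.

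The 12 largest rises among genes of at least 10 CPM also held genes outside these lists. MDFI, an inhibitor of myogenic transcription factors, stood at 33.6, 59.7 and 36.9 CPM in E77 Occipital and 0.573, 0.6400 and 0.635 CPM in E42 Posterior (log2 fold change 6.12 ± 0.30, adjusted p = 2.6e-13). ITGB4, the integrin subunit that binds laminin, stood at 255, 362 and 278 CPM in E77 Occipital and 6.43, 8.02 and 11.3 CPM in E42 Posterior (log2 fold change 5.15 ± 0.27, adjusted p = 6.4e-12). In both genes E42 Posterior was low on all 3 days. C1QTNF5, a secreted C1q-like protein whose human gene overlaps MFRP, so that reads of both may be mixed, averaged 26.1 ± 5.37 CPM in E77 Occipital and 0.518 ± 0.249 CPM in E42 Posterior (log2 fold change 5.58 ± 0.38). NT5E, the surface enzyme that makes adenosine, averaged 28.4 ± 10.5 CPM in E77 Occipital and 1.14 ± 0.365 CPM in E42 Posterior (log2 fold change 4.61 ± 0.28). BMP4, a ligand that favours astrocytes, stood at 3.87, 14.3 and 19.2 CPM in E77 Occipital and 0.404, 0.148 and 0.435 CPM in E42 Posterior (log2 fold change 5.03 ± 0.43). APOD, a lipid-binding lipocalin, averaged 41.4 ± 27.3 CPM in E77 Occipital and 1.13 ± 0.416 CPM in E42 Posterior (log2 fold change 5.03 ± 0.46). Within E77 Occipital both BMP4 and APOD were lowest on day 11.

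Proteoglycans and their partners in the brain's extracellular matrix were mostly higher: 9 of 13 were higher and 3 lower, and the median log2 fold change was 0.90. ACAN, the core of perineuronal nets, stood at 7.07, 16.6 and 19.2 CPM in E77 Occipital and 0.303, 0.295 and 0.568 CPM in E42 Posterior (log2 fold change 5.12 ± 0.70, adjusted p = 8.3e-06). TNR, tenascin-R, made largely by the oligodendrocyte lineage, stood at 204, 348 and 384 CPM in E77 Occipital and 18.9, 24.3 and 32.9 CPM in E42 Posterior (log2 fold change 3.61 ± 0.27). Neither gene's groups overlap. SPOCK3 and SPOCK1, which encode testican proteoglycans, were lower, SPOCK3 averaging 1.03 ± 0.627 CPM in E77 Occipital and 27.7 ± 20.4 CPM in E42 Posterior, and SPOCK1 26.2 ± 9.39 CPM in E77 Occipital and 156 ± 41.1 CPM in E42 Posterior. The general extracellular matrix list had 8 of 14 higher and 3 lower. COL6A1, a collagen VI chain, averaged 73.2 ± 15.9 CPM in E77 Occipital and 19.96 ± 4.12 CPM in E42 Posterior (log2 fold change 1.87 ± 0.29), and LAMB1, a laminin chain, 5.27 ± 0.9298 CPM in E77 Occipital and 19.9 ± 4.74 CPM in E42 Posterior (log2 fold change -1.89 ± 0.37). The count of higher members was 5 without the E77 Occipital library of day 17, and 5 without the E42 Posterior library of day 17.

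Genes of glutamatergic neurons had the lowest median of the lists described here, with 13 of 14 lower, 0 higher and a median log2 fold change of -5.03. NEUROD6, a transcription factor of cortical excitatory neurons, stood at 0.0842, 0.0615 and 0.108 CPM in E77 Occipital and at 82.8, 116 and 121 CPM in E42 Posterior (log2 fold change -10.27 ± 0.38, adjusted p = 1.1e-15). TBR1, the factor of early-born deep-layer neurons, stood at 1.39, 0.677 and 1.19 CPM in E77 Occipital and 104, 119 and 113 CPM in E42 Posterior (log2 fold change -6.73 ± 0.37, adjusted p = 6.4e-12). All 3 E77 Occipital libraries lay far below all 3 E42 Posterior ones for both genes.

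The vesicular glutamate transporters, which load the transmitter, were essentially unread in E77 Occipital. SLC17A7 had 0 counts in the 3 E77 Occipital libraries together and 544 in the 3 E42 Posterior libraries, where it stood at 6.53, 7.48 and 6.62 CPM. Against a floor of 3 counts over the group it was at least 190.4-fold lower. SLC17A6 had 1 count in E77 Occipital and 1215 in E42 Posterior, 1276-fold lower with a 95% exact counting interval of 228 to 50429; such intervals and floors cover counting error only. NEUROD2, a partner of NEUROD6, stood at 0, 0.215 and 0.108 CPM in E77 Occipital and 60.4, 84.5 and 84.02 CPM in E42 Posterior, and BHLHE22, a factor of postmitotic cortical neurons, at 0.0842, 0.154 and 0.253 CPM in E77 Occipital and 41.96, 71.4 and 110.1 CPM in E42 Posterior. Within E42 Posterior BHLHE22 was lowest on day 11 and highest on day 17. The single member that did not pass was RORB, a factor of middle-layer neurons that glia also express (16.4 ± 3.79 CPM in E77 Occipital, 12.6 ± 4.51 CPM in E42 Posterior, log2 fold change 0.38 ± 0.20). It passed as higher without the day 17 library of E77 Occipital (0.65) or of E42 Posterior (0.77).

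The intermediate progenitor list, the step before these neurons, had 9 of 10 lower and a median of -2.62. EOMES, its defining factor, stood at 3.87, 0.7997 and 0.145 CPM in E77 Occipital and 201, 156 and 134 CPM in E42 Posterior (log2 fold change -6.89 ± 0.49, adjusted p = 9.7e-10). It was lower on each later day in both groups, and the highest E77 library lay far below the lowest E42 one. NEUROD1 and NEUROD4, neurogenic factors, averaged 0.0671 ± 0.0485 and 0.215 ± 0.122 CPM in E77 Occipital and 5.81 ± 0.6701 and 7.47 ± 2.68 CPM in E42 Posterior. NEUROG1 had 0 counts in E77 Occipital and 67 in E42 Posterior, at least 23.4-fold lower. PPP1R17, a phosphatase inhibitor also used as a marker of these progenitors, did not pass and overlapped between the groups, with 14.6, 49.2 and 87.9 CPM in E77 Occipital and 41.3, 33.4 and 30.9 CPM in E42 Posterior.

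Among factors of cortical layers 7 of 14 were lower and 0 higher. CUX2, of upper-layer neurons, stood at 2.15, 2.95 and 3.26 CPM in E77 Occipital and 67.8, 114 and 128 CPM in E42 Posterior (log2 fold change -5.19 ± 0.31, adjusted p = 1.4e-11). CUX2 was lowest on day 11 and highest on day 17 in both groups, which did not overlap. MEF2C, a factor of maturing neurons, averaged 19.6 ± 4.53 CPM in E77 Occipital and 142 ± 85.2 CPM in E42 Posterior (log2 fold change -2.71 ± 0.19). Of 6 tested Cajal-Retzius genes 3 were lower, among them RELN, the secreted layering signal, at 7.202 ± 2.100 CPM in E77 Occipital and 29.96 ± 2.62 CPM in E42 Posterior, and EBF3, a transcription factor, at 0.116 ± 0.0747 CPM in E77 Occipital and 5.33 ± 1.66 CPM in E42 Posterior.

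**Figure D2:**
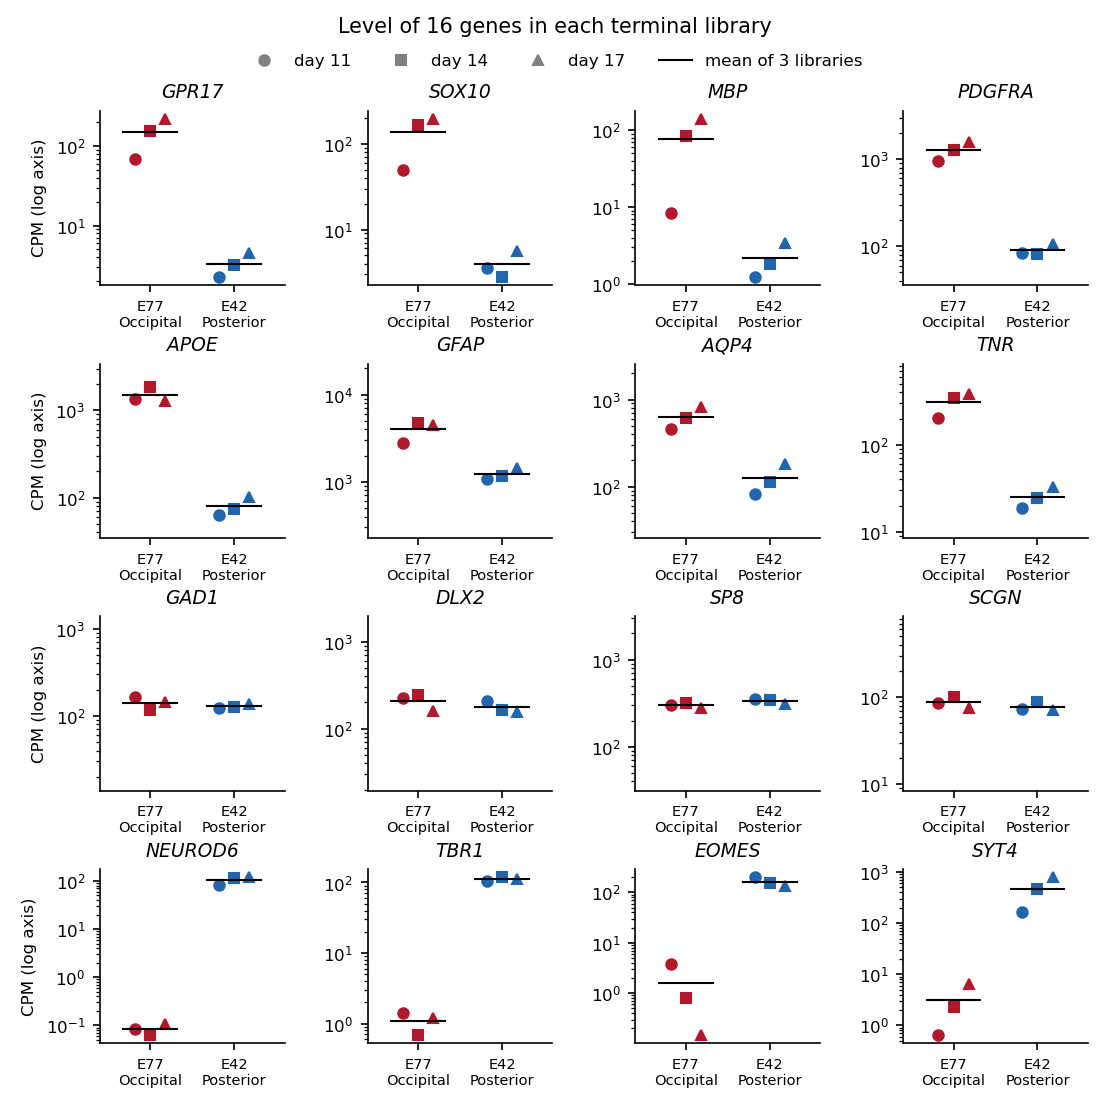
Level of 16 genes in each of the 6 terminal libraries (CPM on a log axis, a separate range per panel), E77 Occipital left in red and E42 Posterior right in blue, with the symbol giving the day and the line the mean of 3. Glial genes fill the upper 2 rows, where every E77 library lies above every E42 library. GABAergic genes fill the third row, where the groups overlap. The last row holds neuronal genes and EOMES of intermediate progenitors, and there every E77 library lies below every E42 library.

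GABAergic genes, in contrast to the glutamatergic ones, mostly did not pass: 1 of 15 was higher, 0 were lower, and the median log2 fold change was 0.06. Without the E42 Posterior library of day 14 none was higher, and with only the 6 libraries 2 were lower. GAD1, the enzyme that makes GABA, stood at 164, 117 and 144 CPM in E77 Occipital and 122, 128 and 138 CPM in E42 Posterior (log2 fold change 0.13 ± 0.25, adjusted p = 0.73). DLX2, a master factor of inhibitory neurons, stood at 224, 243 and 158 CPM in E77 Occipital and 206, 164 and 155 CPM in E42 Posterior (log2 fold change 0.25 ± 0.28). For both genes the groups overlapped. A range of 2 SE either side of the difference ran from -0.37 to 0.63 for GAD1 and from -0.31 to 0.81 for DLX2, so that moderate differences in either direction were not detectable here. CALB2, the calcium-binding protein calretinin, averaged 73.6 ± 14.9 CPM in E77 Occipital and 129 ± 10.5 CPM in E42 Posterior, and its range of -1.53 to -0.09 lay below 0 although it did not pass (log2 fold change -0.81 ± 0.36, adjusted p = 0.091). It passed as lower with only the 6 libraries. GAD1, DLX2, CALB2 and SCGN were named after their values were seen. SCGN, a calcium-binding protein of migrating interneurons, averaged 87.2 ± 12.5 CPM in E77 Occipital and 78.2 ± 9.703 CPM in E42 Posterior, and SP8, a factor of the same cells, 300.5 ± 20.2 CPM in E77 Occipital and 334 ± 23.2 CPM in E42 Posterior.

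Genes shared by all neurons were modestly lower in E77 Occipital, with 11 of 14 lower, 0 higher and a median of -0.63. RBFOX3, the neuronal splicing factor NeuN, had the largest fall of that list, at 0.0421, 0.308 and 0.326 CPM in E77 Occipital and 22.7, 23.7 and 23.9 CPM in E42 Posterior (log2 fold change -6.75 ± 0.43, adjusted p = 1.5e-11). NSG2, an endosomal protein of young neurons, stood at 144, 241 and 220.0 CPM in E77 Occipital and 511, 550.5 and 573 CPM in E42 Posterior (log2 fold change -1.46 ± 0.23). GAP43, a growth cone protein, averaged 32.7 ± 7.02 CPM in E77 Occipital and 108 ± 38.7 CPM in E42 Posterior (log2 fold change -1.72 ± 0.42). No library of either group crossed over for these 3 genes. The count of lower pan-neuronal genes was 4 without the day block, and NSG2 (adjusted p = 0.0944) was among those lost. The synapse list had 11 of 15 lower and 1 higher, and without the day block 8 lower and 0 higher.

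SYT4, a synaptotagmin of dense-core vesicles, fell the most among synapse genes and stood at 0.631, 2.25 and 6.33 CPM in E77 Occipital and 164, 466 and 799 CPM in E42 Posterior (log2 fold change -7.41 ± 0.38, adjusted p = 5.7e-12). It was higher on each later day in both groups.

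Transmitter receptors shifted subunit by subunit, with 15 of 24 lower and 5 higher. GRIN1 and GRIN2B encode NMDA receptor subunits. GRIN1 stood at 0.126, 0.892 and 2.79 CPM in E77 Occipital and 12.6, 33.6 and 52.3 CPM in E42 Posterior (log2 fold change -4.88 ± 0.36, adjusted p = 1.8e-10). GRIN2B stood at 1.26, 3.26 and 6.11 CPM in E77 Occipital and 21.6, 61.3 and 109 CPM in E42 Posterior (log2 fold change -4.12 ± 0.35). Both genes were lowest on day 11 and highest on day 17 in either group. The 5 higher genes, named after their values were seen, were GRIA4 and GRIN2A (AMPA and NMDA subunits, log2 fold changes 1.32 ± 0.24 and 1.24 ± 0.37), the kainate subunits GRIK2 (1.76 ± 0.35) and GRIK3 (0.47 ± 0.18), and the GABA receptor subunit GABRB1 (1.38 ± 0.25). GRIK3 and GRIN2A did not pass without the day block or with only the 6 libraries. GRIK3 also did not pass without the low-count filter, or when either group's library of day 14 or 17 was left out (0.33 to 0.43), and GRIN2A did not without the day 11 library of E77 Occipital (1.04) or of E42 Posterior (0.74). Without the day block 12 receptor genes were lower and 3 higher.

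Of 19 ion channel genes 7 were lower and 4 higher. Their median log2 fold change of -0.07 was near the -0.04 of all tested genes. Without the day block 5 ion channel genes were lower and 3 higher. KCNQ3, a channel that damps firing, averaged 20.2 ± 5.39 CPM in E77 Occipital and 96.95 ± 13.7 CPM in E42 Posterior (log2 fold change -2.27 ± 0.22, adjusted p = 1.9e-08), and CACNA2D1, a calcium channel subunit, 38.8 ± 5.58 CPM in E77 Occipital and 162 ± 33.7 CPM in E42 Posterior. KCNK1, a leak channel that glia also use, was higher, at 21.6 ± 5.42 CPM in E77 Occipital and 4.87 ± 0.358 CPM in E42 Posterior (log2 fold change 2.11 ± 0.27).

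Axon guidance genes had 15 of 25 lower and 4 higher. UNC5C, a netrin receptor, stood at 0.168, 0.492 and 1.08 CPM in E77 Occipital and 49.04, 40.3 and 76.5 CPM in E42 Posterior (log2 fold change -6.57 ± 0.47, adjusted p = 7.5e-10). EPHA3, an ephrin receptor of cortical axons, stood at 2.74, 2.65 and 3.65 CPM in E77 Occipital and 159, 212 and 201 CPM in E42 Posterior (log2 fold change -5.99 ± 0.29). SEMA5A, a semaphorin, ran the other way, at 645, 813 and 1006 CPM in E77 Occipital and 49.4, 59.6 and 80.5 CPM in E42 Posterior (log2 fold change 3.71 ± 0.23, adjusted p = 5.2e-11). In none of these genes did a library of one age reach the range of the other.

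Most tested genes of the cortical hem and choroid plexus list, and of the caudal patterning list, were lower at E77. The hem is the WNT source at the medial edge. RSPO3, which amplifies WNT signals, had 1 count in E77 Occipital and stood at 12.5, 13.3 and 10.5 CPM in E42 Posterior, 1004-fold lower (95% exact counting interval 179.7 to 39688). WNT8B and WNT7B, WNT ligands, averaged 0.0624 ± 0.0281 and 0.405 ± 0.0998 CPM in E77 Occipital and 4.07 ± 0.935 and 18.7 ± 2.66 CPM in E42 Posterior. Of 13 tested hem and choroid plexus genes 8 were lower and 2 higher, though TTR, the defining choroid plexus gene, averaged 0 CPM in E77 Occipital and 0.0164 CPM in E42 Posterior. The summed level of the 13 genes was not lower, at 39.36 to 59.39 CPM in E77 Occipital and 34.44 to 46.98 CPM in E42 Posterior. Of 18 WNT pathway genes 6 were lower and 0 higher, and the feedback target AXIN2 did not pass (33.6 ± 1.79 CPM in E77 Occipital, 44.7 ± 2.92 CPM in E42 Posterior, named after its value was seen).

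Of 11 caudal patterning genes 8 were lower and 0 higher, with a median of -1.85. NR2F2, the partner of NR2F1, stood at 6.65, 7.93 and 5.61 CPM in E77 Occipital and 48.1, 44.8 and 46.7 CPM in E42 Posterior (log2 fold change -2.79 ± 0.23, adjusted p = 2.9e-09). NR2F1 itself did not pass (log2 fold change -0.10 ± 0.17), and whether the pair differ was not tested. The 12 largest falls also held SLA, an adaptor of SRC-type signalling whose human gene lies within the thyroglobulin gene, so that reads may be mixed, at 0.126, 0.123 and 0.108 CPM in E77 Occipital and 66.8, 103 and 104 CPM in E42 Posterior (log2 fold change -9.55 ± 0.43), and FRMD7, a cytoskeletal linker of growing neurites, at 0, 0.0923 and 0.217 CPM in E77 Occipital and 4.98, 11.5 and 29.2 CPM in E42 Posterior (log2 fold change -7.07 ± 0.59).

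Radial glia genes were split, with 6 of 16 higher and 6 lower. SOX9, a factor of glial competence, averaged 445 ± 94.5 CPM in E77 Occipital and 194 ± 28.8 CPM in E42 Posterior (log2 fold change 1.21 ± 0.15, adjusted p = 5.9e-07). GLI3, the dorsal patterning factor and hedgehog effector, ran the other way, at 172, 140.0 and 109 CPM in E77 Occipital and 626, 546 and 472 CPM in E42 Posterior (log2 fold change -1.98 ± 0.16, adjusted p = 1.3e-09). Every GLI3 value of E77 Occipital lay below every E42 Posterior one. Of 9 outer radial glia genes 4 were higher and 2 lower: FAM107A, a cytoskeletal regulator, stood at 216, 332 and 345 CPM in E77 Occipital and 32.1, 38.6 and 60.2 CPM in E42 Posterior (log2 fold change 2.77 ± 0.25, adjusted p = 1.9e-08), while HOPX, the other common marker, did not pass (122 ± 4.47 CPM in E77 Occipital, 128 ± 6.41 CPM in E42 Posterior, picked after its value was seen).

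Genes of dividing cells were lower together, by a small amount: 21 of 23 proliferation genes were lower, 0 higher, with a median of -0.69. TOP2A, which untangles replicated DNA, stood at 210.0, 161 and 147 CPM in E77 Occipital and 460.4, 362 and 358 CPM in E42 Posterior (log2 fold change -1.20 ± 0.16, adjusted p = 3.3e-06). CDK1, the mitotic kinase, averaged 21.4 ± 2.73 CPM in E77 Occipital and 43.6 ± 6.37 CPM in E42 Posterior, and CCNB1, its cyclin, 29.3 ± 1.397 CPM in E77 Occipital and 56.4 ± 9.12 CPM in E42 Posterior. CCND1, cyclin D of the first gap phase, was higher, at 50.2, 127 and 184 CPM in E77 Occipital and 8.22, 12.8 and 17.3 CPM in E42 Posterior (log2 fold change 3.15 ± 0.44, adjusted p = 1.2e-05). The cell cycle inhibitor genes CDKN1C and CDKN1A moved apart, with log2 fold changes of 2.51 ± 0.38 and -1.25 ± 0.27. Without the day block 15 of the 23 proliferation genes were lower.

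Of 11 early progenitor genes 4 were lower and 2 higher. IGF2BP1, which stabilises growth-related transcripts, stood at 0.0421, 0.0615 and 0.0362 CPM in E77 Occipital and 14.3, 8.81 and 4.98 CPM in E42 Posterior (log2 fold change -7.45 ± 0.53, adjusted p = 3.1e-10). LIN28B, the let-7 inhibitor, averaged 0.0765 ± 0.0479 CPM in E77 Occipital and 2.27 ± 0.528 CPM in E42 Posterior (log2 fold change -4.89 ± 0.48). IGF2BP1 was highest on day 11 within E42 Posterior, and no E77 library came near either gene's E42 range. HMGA2, a chromatin protein of young stem cells named after its value was seen, was higher (8.299 ± 2.299 CPM in E77 Occipital, 2.94 ± 0.492 CPM in E42 Posterior, log2 fold change 1.51 ± 0.32). Of the 9 tested late progenitor genes 3 were higher and 2 lower, with log2 fold changes of 0.54 ± 0.11 for NFIX, a gliogenic nuclear factor, and -0.46 ± 0.10 for its relative NFIB.

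Notch pathway genes had 8 of 17 higher and 3 lower. HEY1, a Notch target, stood at 65.04, 109 and 119 CPM in E77 Occipital and 18.3, 17.97 and 21.4 CPM in E42 Posterior (log2 fold change 2.31 ± 0.20, adjusted p = 3.5e-09). DLL3, a ligand that acts inside the cell and was named after its value was seen, averaged 102 ± 24.4 CPM in E77 Occipital and 29.6 ± 4.18 CPM in E42 Posterior (log2 fold change 1.77 ± 0.29). HES6, which opposes HES1 in neurogenesis, was lower (30.8 ± 4.06 CPM in E77 Occipital, 118 ± 18.1 CPM in E42 Posterior, log2 fold change -1.93 ± 0.22). In the gliogenic cytokine and BMP list 7 of 19 were higher and 1 lower, among them OSMR, a receptor of the interleukin-6 family (71.02 ± 4.11 CPM in E77 Occipital, 31.2 ± 4.64 CPM in E42 Posterior), and ID4, a BMP-induced inhibitor of differentiation (529 ± 106 CPM in E77 Occipital, 194 ± 10.1 CPM in E42 Posterior). BMP7, the lower one, averaged 21.8 ± 3.28 CPM in E77 Occipital and 45.5 ± 6.76 CPM in E42 Posterior.

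FGF targets were mixed, with 4 of 15 higher and 5 lower, and ETV4, a direct target, had a log2 fold change of -2.81 ± 0.25 (2.29 ± 0.234 CPM in E77 Occipital, 16.2 ± 1.89 CPM in E42 Posterior). Without the day block 1 was higher and 2 lower, and without the E77 Occipital library of day 11 or 14, or the E42 Posterior library of day 11 or 14, 3 were lower. Of 12 insulin-like growth factor genes 2 were higher and 3 lower. IGFBP5, a binding protein, stood at 767, 1523 and 2259 CPM in E77 Occipital and 385, 418 and 536 CPM in E42 Posterior (log2 fold change 1.68 ± 0.32). Its E77 level differed by day, with day 11 lowest.

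Interferon response and antigen presentation genes were higher in 11 of 16 cases and lower in 1, with a median of 0.99. ISG15, a ubiquitin-like protein induced by interferon, stood at 2.19, 7.69 and 4.67 CPM in E77 Occipital and 0.977, 0.443 and 1.204 CPM in E42 Posterior (log2 fold change 2.42 ± 0.41, adjusted p = 5.2e-05). MX1, an antiviral GTPase, stood at 19.5, 42.6 and 29.7 CPM in E77 Occipital and 8.99, 8.37 and 8.63 CPM in E42 Posterior (log2 fold change 1.79 ± 0.29). E77 Occipital was highest on day 14 for both, and no E42 library overlapped. The opposite case was OAS1, an antiviral synthetase, at 0.0689 ± 0.0253 CPM in E77 Occipital and 1.01 ± 0.235 CPM in E42 Posterior (log2 fold change -3.76 ± 0.80).

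Of 16 cholesterol synthesis genes 5 were higher and 0 lower, but 0 passed without the E42 Posterior library of day 14, 3 without the E77 Occipital library of day 14 or the E42 Posterior library of day 17, 2 without the E77 Occipital library of day 17 and 1 without the day block. Of 14 immediate early genes 4 were lower, led by NR4A3, an activity-induced nuclear receptor, at 2.44, 1.91 and 2.53 CPM in E77 Occipital and 4.95, 66.2 and 16.2 CPM in E42 Posterior. NPAS4, a factor induced by neuronal activity, stood at 0.463, 0.277 and 0.217 CPM in E77 Occipital and 0.6399, 13.4 and 0.736 CPM in E42 Posterior. The E42 Posterior library of day 14 was far above the others for both genes, and without it 1 immediate early gene was lower. Without the E77 Occipital library of day 14 there were 2. NPAS4 itself did not pass without either of these libraries (log2 fold changes -1.61 and -1.63). Of 16 genes of glycolysis and hypoxia 1 was higher and 1 lower, the lower one being NDRG1, a stress-responsive protein also expressed in oligodendrocytes (9.18 ± 1.73 CPM in E77 Occipital, 41.9 ± 15.1 CPM in E42 Posterior, log2 fold change -2.13 ± 0.28). COL1A1, a fibrillar collagen, was lower, averaging 0.113 ± 0.0536 CPM in E77 Occipital and 6.29 ± 2.702 CPM in E42 Posterior. Of 19 ribosomal protein genes 2 were higher and 0 lower, and of 15 stress response genes 2 were higher and 2 lower. Of 8 endothelial genes 1 was higher and 1 lower, and of 7 rostral patterning genes 1 was higher and 2 lower. In the pericyte and fibroblast list as a whole 3 of 12 were lower and 1 higher, and its summed level was 65.7 to 90.3 CPM in E77 Occipital and 68.8 to 74.2 CPM in E42 Posterior.

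The age difference of the oligodendrocyte list widened over the terminal days. Its median log2 difference between the matched libraries was 3.26 on day 11, 4.32 on day 14 and 4.75 on day 17. For astrocyte genes it was 2.31, 2.44 and 2.29 on the same days, and for glutamatergic genes -5.53, -4.80 and -4.87. With 1 library per series and day these values have no test.

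**Figure D3:**
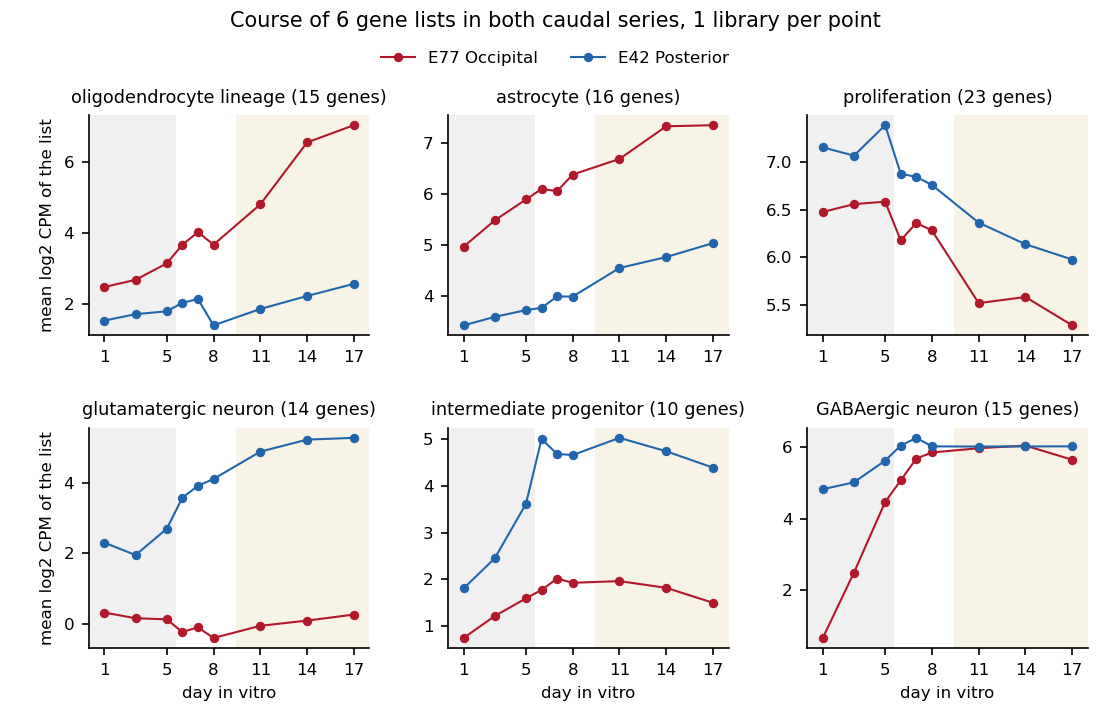
Mean log2 CPM of 6 gene lists (a separate vertical range per panel) on days 1 to 17 in E77 Occipital (red) and E42 Posterior (blue), 1 library per point, with the stem phase shaded grey and the terminal phase yellow. The oligodendrocyte list of E77 Occipital climbs from 4.81 on day 11 to 7.05 on day 17, the glutamatergic list of E42 Posterior climbs while that of E77 Occipital stays near 0, and the GABAergic lists lie closer together in the terminal phase (5.64 in E77 Occipital and 6.02 in E42 Posterior on day 17) than on day 1.

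The course from the start of culture puts these levels beside those of the first day. Mean log2 CPM of the glutamatergic list was 0.31 on day 1 and 0.26 on day 17 in E77 Occipital, and 2.31 and 5.30 on those days in E42 Posterior. The oligodendrocyte list stood at 2.47 and 7.05 in E77 Occipital, and at 1.52 and 2.56 in E42 Posterior. The GABAergic list stood at 0.66 and 5.64 in E77 Occipital, and at 4.82 and 6.02 in E42 Posterior. On days 3 and 5, still with FGF2, it stood at 2.49 and 4.46 in E77 Occipital, and at 5.01 and 5.62 in E42 Posterior. The distance of the GABAergic list therefore narrowed already within the stem phase. The distance between the ages on day 17 was thus smaller than on day 1 for the GABAergic list, and larger for the other 2.

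Whether the terminal age difference was other than the one in the stem phase (days 1, 3 and 5, with FGF2) was tested as an interaction in the same fit. In the stem phase 8435 genes differed (40.6%), 4186 being higher in E77 Occipital (20.2%) and 4249 lower (20.5%). The difference between phases passed for 974 genes in the positive direction (4.69%) and 1108 in the negative (5.33%). It was positive for 9 of 15 oligodendrocyte genes and negative for 0, among them MYRF, the activator of myelin genes (3.43 ± 0.53, adjusted p = 0.00018), and SOX10 (3.83 ± 0.65, adjusted p = 0.00061). Already in the stem phase 7 of these 15 genes were higher in E77 Occipital and 1 lower, with a median of 1.255. Of 14 glutamatergic genes 11 were already lower in the stem phase and 1 higher, with a median of -1.63, and the difference between phases was negative for 8 and positive for 1. TBR1 averaged 1.26 ± 0.404 CPM in E77 Occipital and 4.43 ± 1.904 CPM in E42 Posterior in the stem phase, and its difference between phases was -4.93 ± 0.53 (adjusted p = 3.4e-06). FEZF2, a subcortical projection factor, was the positive one (2.00 ± 0.33, adjusted p = 0.00029), and was named after its value was seen.

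GABAergic genes differed between phases in 1 direction. In the stem phase 13 of 15 were lower in E77 Occipital and 1 higher, with a median of -2.02, and the difference between phases was positive for 8 and negative for 0. The stem phase pools days 1, 3 and 5, over which the list already climbed in E77 Occipital, as given above. SCGN averaged 0.732 ± 1.23 CPM in E77 Occipital and 12.8 ± 5.49 CPM in E42 Posterior in the stem phase, beside the terminal means given above, a difference between phases of 4.71 ± 0.67 (adjusted p = 0.00011). GAD1 gave 1.65 ± 0.37 (adjusted p = 0.0057). Neither of these 2 differences passed without the day block. For astrocyte genes 4 of 16 were positive and 2 negative, and the largest negative one was SLC1A2 (-2.53 ± 0.27, adjusted p = 2e-06), which was higher in E77 Occipital in the stem phase (2.04 ± 0.20) and whose lower terminal call was lost under most alternatives, as given above. In that phase 12 of the 16 astrocyte genes were already higher in E77 Occipital and 0 lower, with a median of 1.945. Proliferation genes had 0 of 23 in either direction, and in the stem phase 21 of 23 were already lower in E77 Occipital.

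The same age difference at the front of the cortex, E77 Frontal minus E42 Anterior on the same days, shares no library with the caudal one and was set against it. In the rostral series 3772 genes were higher at E77 (18.2%) and 4042 lower (19.5%). Of the 3252 genes higher in E77 Occipital 1668 were also higher in E77 Frontal (51.3% of the caudal and 44.2% of the rostral genes), and of the 3953 lower ones 1598 were also lower (40.4% and 39.5%). The difference between regions passed for 4219 genes (20.3%), for 2136 in the positive direction (10.3%) and 2083 in the negative (10.0%).

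In the rostral series 10 of 14 glutamatergic genes were lower at E77 and 1 higher, with a median of -1.72, and the difference between regions was negative for 10 of 14 and positive for 0. NEUROD6 averaged 0.0848 ± 0.0235 CPM in E77 Occipital and 106 ± 20.5 CPM in E42 Posterior, but 0.822 ± 0.517 CPM in E77 Frontal and 4.57 ± 0.992 CPM in E42 Anterior (difference between regions -7.79 ± 0.55, adjusted p = 4.2e-10). TBR1 averaged 3.78 ± 1.58 CPM in E77 Frontal and 14.6 ± 3.45 CPM in E42 Anterior (difference between regions -4.78 ± 0.47). Of the 4 groups, E42 Posterior was by far the highest for both genes. Summed over the 14 genes, terminal libraries stood at 74.0 to 99.4 CPM in E77 Occipital, 643 to 943 CPM in E42 Posterior, 98.7 to 104.5 CPM in E77 Frontal and 161 to 181 CPM in E42 Anterior.

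Oligodendrocyte genes were higher at E77 in both regions: in the rostral series 14 of 15 were higher and 0 lower, with a median of 3.08. The difference between regions was positive for 6 and negative for 0. It was widest for PDGFRA (4.23 ± 0.42, adjusted p = 3.3e-07), which averaged 381 ± 97.3 CPM in E77 Frontal and 506 ± 65.2 CPM in E42 Anterior, a gene that fibroblasts express too. SOX10 did not differ between regions past the threshold (0.55 ± 0.61, adjusted p = 0.57), with 43.8 ± 32.5 CPM in E77 Frontal and 1.83 ± 0.666 CPM in E42 Anterior. Astrocyte genes were positive for 5 of 16 and negative for 1. GABAergic genes were positive for 1 of 15 and negative for 1.

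The E42 Anterior libraries stand apart from the other series by fibroblast genes. All 12 pericyte and fibroblast genes averaged at least 1 CPM there, and they summed to 16914.9 to 26838.4 CPM in E42 Anterior, against 83.5 to 90.7 CPM in E77 Frontal. The differences between regions of the matrix list (14 of 14 positive) and of the pericyte and fibroblast list (9 of 12 positive, 1 negative) moved with these levels, whose part in the other differences between regions was not tested. NR2F1 followed the regional labels and averaged 18.6 ± 3.06 CPM in E77 Frontal and 101 ± 29.8 CPM in E42 Anterior, below both caudal groups.

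**Figure D4:**
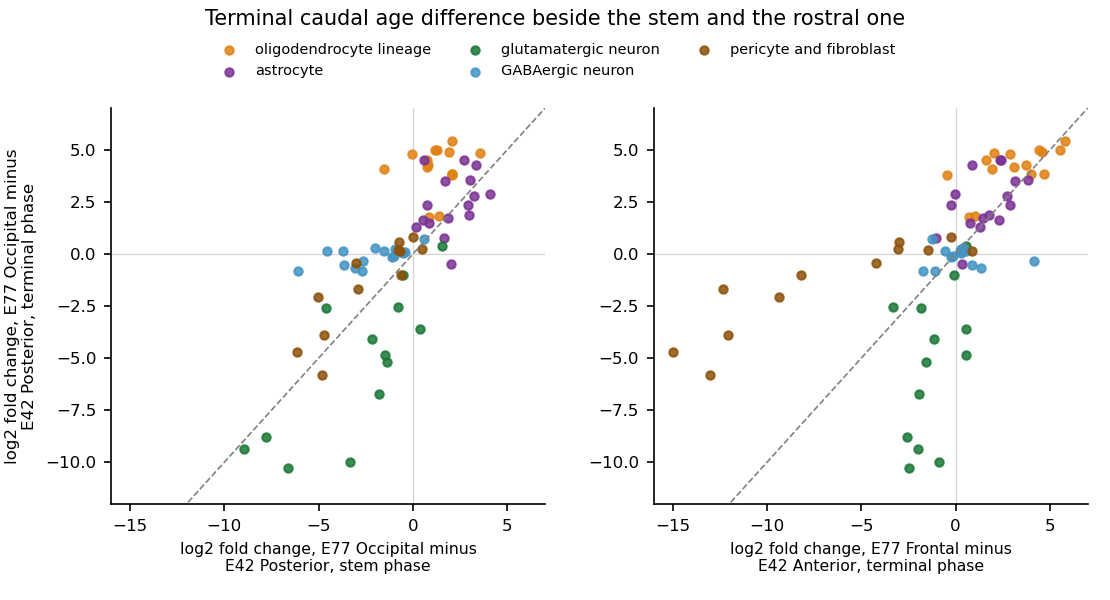
Log2 fold change of the terminal caudal age difference (vertical) for members of 5 gene lists, beside that of the stem phase of the same series (left, horizontal) and of the rostral series in the terminal phase (right, horizontal); SLC17A7, with 0 counts in E77 Occipital, is left out and the dashed line marks equal values. Oligodendrocyte genes lie above the line at left, all glutamatergic genes but FEZF2 lie below it at left, GABAergic genes lie above it at left, and fibroblast genes reach -14.98 horizontally at right.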

How the data were processed

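Reads were aligned with STAR and counted with featureCounts, per the submitters' processing notes; versions, genome build and annotation are not given in the sources used here. The authors deposited 2 tables, raw counts and RPKM, each per gene and sample. Samples were grouped by their labels. All tests used the counts; the deposited RPKM served for levels per length and for limma alternatives on log2(RPKM + 1) and log2(RPKM + 0.1).

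Genes were kept by edgeR's filterByExpr (20770 of 34619), scaled by TMM and fitted with edgeR's quasi-likelihood model on the 36 libraries of days 1 to 17, in 12 groups of series and phase with day as a block within phase, which leaves 18 residual degrees of freedom. P-values were Benjamini-Hochberg adjusted over all tested genes, with a threshold of 0.05. Same-day libraries of both ages deviated from their group means with correlations of 0.053, 0.054 and 0.157. For libraries of different days these correlations ran from -0.178 to 0.090, so they overlap those of the same day. The pairing by day comes from the labels. Simulated data were used to test the scripts. No pair of libraries had counts within sampling noise of each other. Of the 529 genes in 40 lists, 522 were in the table and 496 were tested.

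Named were the 12 largest rises and falls with a symbol, at least 10 CPM and 1 direction on all 3 days; up to 4 passing genes per list with the largest changes (not all are printed, and some genes are not reported here); and 6 per direction for each interaction. Other genes were named after their values were seen: EMX2, NR2F1 and TTR as label checks, SOX8, RORB, PPP1R17, MYRF and those marked in the text. The comparison and the lists were chosen with earlier results of these data known. Alternatives were DESeq2's size factors and Wald test, no low-count filter, no day block, day 20 added, only these 6 libraries, limma on RPKM, each library left out and, added after seeing the data, only the 18 libraries of both caudal series. Versions were R 4.3.3, edgeR 4.0.16, limma 3.58.1 and DESeq2 1.42.0.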

Additional observations from a re-analysis of the deposited data

Results flagged for a closer look

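The age difference of E77 Occipital minus E42 Posterior in the terminal phase was set against the same difference in 2 other settings, and the items below passed a test of the difference between them (edgeR quasi-likelihood interaction, Benjamini-Hochberg adjusted). Against the stem phase 974 genes passed in the positive direction and 1108 in the negative. Against the rostral series 2136 genes passed in the positive direction and 2083 in the negative.

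Of the genes with the widest positive differences between phases, ACAN, the perineuronal net core, gave 6.35 ± 1.12. It averaged 0.4905 ± 0.296 CPM in E77 Occipital and 1.33 ± 1.77 CPM in E42 Posterior in the stem phase, and 14.3 ± 6.404 CPM in E77 Occipital and 0.389 ± 0.155 CPM in E42 Posterior in the terminal phase. NKX2-2, an oligodendrocyte differentiation factor, gave 5.64 ± 0.66, with 0.376 ± 0.247 CPM in E77 Occipital and 1.18 ± 0.626 CPM in E42 Posterior in the stem phase, and 33.9 ± 22.9 CPM in E77 Occipital and 1.73 ± 0.312 CPM in E42 Posterior in the terminal phase. BMP4 gave 5.58 ± 0.72. CALB2, the interneuron calcium-binding protein calretinin, gave 5.29 ± 0.73, with 0.513 ± 0.822 CPM in E77 Occipital and 31.2 ± 24.1 CPM in E42 Posterior in the stem phase, and 73.6 ± 14.9 CPM in E77 Occipital and 129 ± 10.5 CPM in E42 Posterior in the terminal phase. BRINP1, a neuronal regulator of the cell cycle, gave 5.96 ± 0.71, and NTSR1, the neurotensin receptor, gave 5.55 ± 0.88, with 0.0122 ± 0.0211 CPM in E77 Occipital and 4.24 ± 2.18 CPM in E42 Posterior in the stem phase.

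Of the genes with the widest negative differences between phases, SLA gave -7.07 ± 0.74 and averaged 0.367 ± 0.159 CPM in E77 Occipital and 2.096 ± 0.293 CPM in E42 Posterior in the stem phase. SLC17A6 gave -6.63 ± 1.53, a value that rests on 1 count in E77 Occipital in the terminal phase. PALMD, a membrane-associated protein of the paralemmin family, gave -7.02 ± 0.71. ADRA2A, an adrenergic receptor, gave -6.14 ± 0.59. CLMP, an adhesion protein, gave -6.13 ± 0.71, and CDH12, a neuronal cadherin, gave -5.06 ± 1.01.

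Of the genes with the widest positive differences between regions, COL3A1, a fibrillar collagen, gave 10.29 ± 2.10. It averaged 0.156 ± 0.137 CPM in E77 Occipital and 4.38 ± 1.61 CPM in E42 Posterior, and 0.209 ± 0.109 CPM in E77 Frontal and 7092 ± 1168 CPM in E42 Anterior. LUM, the matrix proteoglycan lumican, gave 10.66 ± 1.75, with 0.0981 ± 0.102 CPM in E77 Frontal and 549 ± 87.1 CPM in E42 Anterior. IGF2, a fetal growth factor, gave 10.47 ± 1.97, with 0.141 ± 0.03100 CPM in E77 Frontal and 1832 ± 419 CPM in E42 Anterior. PTGDR, a prostaglandin receptor, gave 13.34 ± 3.09, TBX15, a transcription factor of mesenchyme, gave 12.28 ± 2.39, and ISLR, a secreted protein of mesenchymal cells, gave 10.41 ± 1.52. PTGDR and TBX15 averaged 0 CPM in E77 Frontal and 44.4 ± 11.5 and 34.8 ± 9.77 CPM in E42 Anterior, so that their fitted differences depend on how the fit treats a group at 0 and are no bound. The high group of these 6 genes is E42 Anterior, whose summed fibroblast genes are given in the report.

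Of the genes with the widest negative differences between regions, SLC17A6 gave -9.10 ± 0.76, NEUROD6 -7.79 ± 0.55, NEUROD2 -7.36 ± 0.62 and BHLHE22 -6.19 ± 0.43, all glutamatergic genes that were high in E42 Posterior. The value of SLC17A6 again rests on 1 count in E77 Occipital. SLA gave -6.21 ± 0.65, and ADRA2A gave -5.98 ± 0.58.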

How the results depend on the processing

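The counts of genes higher and lower in E77 Occipital stayed within 1.5 times of 3252 and 3953 under the other settings, except that 2001 genes were lower with only the 6 libraries and a day block, and 1736 with only the 6 libraries and no day block. Without the replicate block of day on all 36 libraries, 2588 genes were higher and 2829 lower. Leaving out 1 library at a time gave 2539 to 3327 higher and 2692 to 3472 lower. The difference between phases was less stable: without the block 334 genes were positive and 390 negative, with the DESeq2 Wald test 1492 were positive, and with only the 18 caudal libraries 532 were negative. With a library left out, positive genes numbered 597 to 2289 and negative ones 537 to 1758. The positive count was 2289 without E77 Occipital day 11, 630 without E42 Posterior day 14 and 597 without E42 Posterior day 17. The negative count was 540 and 626 without E77 Occipital days 14 and 17, and 1758, 691 and 537 without E42 Posterior days 11, 14 and 17. The negative count between regions was 991 without the block, and 3543, 3488 and 3442 with limma on log2(RPKM + 1), log2(RPKM + 0.1) and log2(RPKM + 1) with no filter. With a library left out it ran from 1131 to 2088, and the positive count from 1572 to 2600; it was 1131 without E77 Occipital day 14, 1297 without E77 Frontal day 14 and 1384 without E42 Anterior day 17. The causes were not tested.

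Of 139 gene values named, 117 kept their direction and their side of the threshold under every alternative run, and 22 did not. Direction changed for NTSR1 between phases (-0.89 with limma on log2(RPKM + 1), with and without the filter), and for genes that did not pass: HOPX (0.020 without E77 Occipital day 14 and 0.0036 without E42 Posterior day 17, in a range of -0.16 to 0.020 with a library left out), NR2F1 (0.072 without E77 Occipital day 17, in a range of -0.16 to 0.072) and PPP1R17 (-0.18 and -0.31 without the day 17 libraries of E77 Occipital and E42 Posterior, in a range of -0.31 to 0.81). PTGDR between regions did not pass without the block or without E77 Occipital day 17 (11.61), IGF2 did not without E77 Occipital day 14 (9.79), and SLC17A6 between phases did not with only the 18 libraries. The losses of SLC1A2, GRIK3, GRIN2A, NSG2 and NPAS4, and of GAD1 and SCGN between phases, stand in the report, as do the gains of RORB and CALB2. GAD1 between phases was also lost with the 18 libraries, as was GAP43, ACAN between phases with limma on log2(RPKM + 1) and no filter, NFIB and NPAS4 with only the 6 libraries, NR4A3 with these and a day block, and NTSR1 with limma on log2(RPKM + 0.1). ID3 passed as higher with only the 6 libraries and a day block and with the 18 libraries, and AXIN2 as lower with day 20 added, with only the 6 libraries and no block, and with the 18 libraries. Depth limits the genes under about 1 CPM, where E77 Occipital values rest on few counts.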

Other observations

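Some genes were counted at 1 age only in the terminal phase, and the ones here were picked after their values were seen. CCKBR, a cholecystokinin receptor of cortical neurons, had 0 counts in E77 Occipital and 195 in E42 Posterior, at least 68.2-fold lower against a floor of 3 counts over the group. ATOH1, a transcription factor known from the hindbrain and inner ear, had 0 counts in E77 Occipital and 112 in E42 Posterior, and EBF1, a relative of EBF3, had 0 counts in E77 Occipital and 97 in E42 Posterior. BDNF, the neurotrophin also added to the medium as protein, had 0 counts in E77 Occipital and 85 in E42 Posterior, at least 29.8-fold lower. In the other direction MIR219-2, a gene of an oligodendrocyte microRNA, had 82 counts in E77 Occipital and 0 in E42 Posterior, at least 26.03-fold higher.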
